A study of Mus musculus with 6 samples.

Results

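Rab GTPases are small membrane-bound GTP-binding proteins, and each marks particular compartments of the membrane traffic system. A Rab is recruited and loaded with GTP by an exchange factor, binds effectors that move, tether or fuse vesicles, and is turned off by a GTPase-activating protein. A geranylgeranyl transferase adds the lipid anchors that hold Rabs in membranes, and GDP dissociation inhibitors carry inactive Rabs through the cytosol. In muscle, Rabs are known for sorting the glucose transporter GLUT4 between its stores and the cell surface.

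The Rab genes described here were all those whose probe sets carried a lone gene symbol made of Rab, a number and at most a letter and a further digit, so that regulators and effectors with longer names were not members. This gave 95 probe sets of 50 genes, out of 12393 genes named by a lone symbol on the array. Of the 50, 23 had 1 probe set and 27 had more, up to 7. A gene is represented below by its brightest probe set, and 37 of the 50 genes (67 of the 95 probe sets) were bright enough to be tested, at a mean signal above 267.1.

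Myotubes of C2C12, an established mouse myoblast line, were compared on 3 arrays per treatment. The cells had been grown in 20% fetal bovine serum and differentiated for 5 days in 2% horse serum. The treated group received 500 µM palmitate, a saturated fatty acid complexed with fatty-acid-free bovine serum albumin (BSA), and the control group 1% BSA, each for 16 h. The replicates are numbered but not described as separate cultures, so a p-value reflects only how these samples scatter, possibly for technical reasons, and 3 arrays per group limit the precision.

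Correlations between arrays were 0.943 to 0.959 within groups and 0.883 to 0.910 between groups. The trimmed mean of the deposited signals, without the top and bottom 2%, was 1500.5 to 1500.56 on every array, and added hybridisation controls were 0.33 brighter on the log2 scale with palmitate, so the zero of a fold change depends on the scaling. The ratio of 3' to 5' Gapdh control signal, a measure of RNA integrity, was -0.20 on the log2 scale for palmitate replicate 2 and 0.19 to 0.35 for the other arrays. Of the 21 tested markers of differentiated myotubes, 20 did not pass the test (4.76% called, against 20.2% of all genes tested). The other 1, the calcium pump gene Atp2a1, fell by 0.60 on the log2 scale. The median log2 fold change of the 21 markers was -0.15, with 15 below 0 and 6 above. Their summed signal was 265786 to 407598 with BSA and 294082 to 311108 with palmitate.

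With palmitate, 6 of the 37 tested Rab genes fell (16.2%, against 12.3% of all 7931 genes tested) and 0 rose (against 7.92% of all genes). Those that fell were Rab32, Rab31, Rab34, Rab4b, Rab13 and Rab40b, by 1.57-fold to 2.87-fold. They serve different compartments, and no compartment had more than 2 of them. The remaining 31 did not pass, so the share called in either direction was 16.2%, against 20.2% of all genes. The median log2 fold change was -0.096 over the 37 Rab genes and -0.051 over all genes tested, with 15 Rab genes above 0 and 22 below. The SE of a Rab gene's log2 fold change was 0.13 to 0.42, and for 28 of the 37 genes the estimate with 2 SE on either side lay inside a 2-fold change. At an unadjusted p under 0.05, 3 tested Rab genes were higher (8.11%, against 13.7% of all genes) and 7 were lower (18.9%, against 19.8%).

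By probe set, 2 of 67 rose (against 8.63% of all 13575 probe sets tested) and 6 fell (against 10.6%). Together these are 11.9%, against 19.2% of all probe sets in either direction. The 2 that rose were dimmer probe sets of Rab7 and Rab18. Palmitate arrays lay wholly above BSA arrays for 2 Rab genes (5.41%, against 15.9% of all genes) and wholly below for 7 (18.9%, against 22.4%). Scaling to the hybridisation controls put the median over all probe sets at -0.34. Under it, 0 Rab probe sets were called higher (against 2.98% of all probe sets) and 13 lower (19.4%, against 23.3% of all), where the deposited signals gave 2 and 6. By gene, 10 of 37 were then called lower (27.0%, against 26.4% of all genes). Without BSA replicate 2 the number of Rab genes that fell was 2 (Rab31 and Rab32), and the number of all probe sets called was 1579 against 2609.

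**Figure D1:**
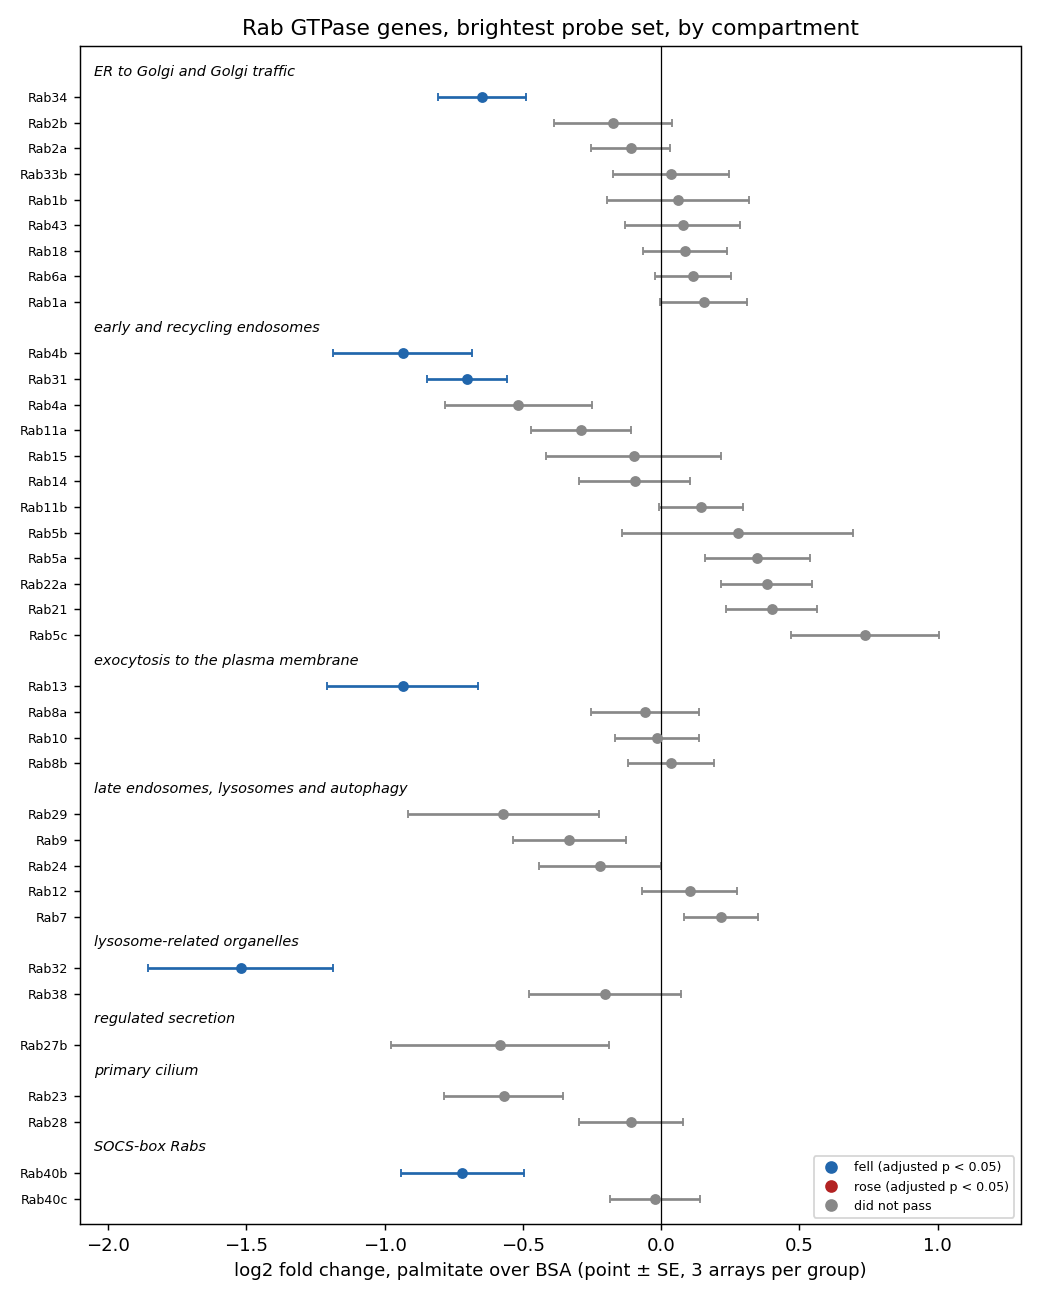
Log2 fold change of the representative probe set of each tested Rab gene, palmitate over BSA (x axis, point ± SE from limma, 3 arrays per group), grouped by the compartment the gene serves. The 6 genes that fell are in blue and lie in 5 of the groups, from -0.65 for Rab34 to -1.52 for Rab32, and the 31 grey genes did not pass.

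Of the 2 Rabs of lysosome-related organelles, Rab32 fell, by more than any other tested Rab gene, and Rab38 did not pass. Rab32 and its close relative Rab38 deliver enzymes to melanosomes, and Rab32 is also known at mitochondria, where it anchors protein kinase A. The signal of Rab32 was 624, 768 and 1156 on the 3 BSA arrays and 340.4, 217 and 318 on the 3 palmitate arrays. The groups did not overlap, and the lowest BSA array lay far above the highest palmitate array. Rab32 was 2.87-fold lower with palmitate (log2 fold change -1.52 ± 0.33, limma adjusted p = 0.00826). It passed with each of the 6 arrays left out in turn, with a log2 fold change between -1.72 and -1.27 and an adjusted p of up to 0.0485. With palmitate the mean log2 signal of Rab32 was 8.16, just above the filter. At the 60th percentile filter Rab32 was too dim to be tested. Rab38 was at -0.20 ± 0.27, and its groups overlapped.

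Of the Rabs of early and recycling endosomes, 12 of 14 genes were tested. Rab31 and Rab4b fell (2 genes, 16.7%, against 12.3% of all genes tested) and 10 did not pass, with a median of 0.025. Rab31 acts in traffic between the trans-Golgi network and endosomes. Its brightest probe set read 5196, 5309 and 5074 with BSA and 2903, 3359.6 and 3339 with palmitate. The BSA arrays lay within a narrow band, and all palmitate arrays were below it. This was a 1.63-fold fall (-0.70 ± 0.14 on the log2 scale, adjusted p = 0.00573), which passed with each array left out in turn, with an adjusted p of up to 0.0332. The other tested probe set of Rab31, at 583, 1066 and 981 with BSA and 998, 1029 and 1038 with palmitate, overlapped between groups and was at 0.27 ± 0.25. With the probe sets of a gene averaged, Rab31 was at -0.22 and no longer passed (adjusted p = 0.389).

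Rab4b, like Rab4a, serves fast recycling from early endosomes to the surface. Its signal was 1236, 940.2 and 919.5 with BSA and 437, 542 and 647 with palmitate, with no overlap. It fell 1.91-fold (-0.93 ± 0.25 on the log2 scale, adjusted p = 0.0219). The call was lost without BSA replicate 1, BSA replicate 2 or palmitate replicate 1, with an adjusted p of up to 0.0816. At the 60th percentile filter Rab4b was too dim to be tested. Rab4a, whose brightest probe set is shared by several transcripts, was at -0.52 ± 0.27 (adjusted p = 0.203), and its groups overlapped.

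The 3 Rab5 genes, which drive fusion of early endosomes, were all above 0 without passing, Rab5a at 0.35 ± 0.19, Rab5b at 0.28 ± 0.42 and Rab5c at 0.74 ± 0.27. Rab5c had the highest log2 fold change of the 37 tested genes, with signals of 779, 1008 and 1243 on the BSA arrays and 2075, 1952 and 1116 on the palmitate arrays. Palmitate replicates 1 and 2 were above every BSA array, and palmitate replicate 3 lay among them. Its adjusted p was 0.0743, and it passed without palmitate replicate 3 (0.0195) and after median scaling (0.048).

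Rab21, which acts in integrin endocytosis, read 4534, 6392 and 6079 with BSA and 7928, 6578 and 7752 with palmitate. Rab22a, of early endosomes, read 2328, 2458 and 1990.0 with BSA and 2733, 2931 and 3143 with palmitate. These were the only representative probe sets of tested Rab genes with all palmitate arrays above all BSA arrays, at 0.40 ± 0.16 and 0.38 ± 0.16 (adjusted p = 0.115 and 0.127). A dimmer probe set of Rab22a went the other way without overlap, from 1329.6, 1556 and 1331 to 984, 1223 and 732 (-0.55 ± 0.22, adjusted p = 0.112). The recycling-endosome genes Rab11a and Rab11b were at -0.29 ± 0.18 and 0.15 ± 0.15. Rab14, which links endosomes and the Golgi, was at -0.096 ± 0.20, and Rab15, an endosomal Rab first known from brain, at -0.10 ± 0.32.

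Among Rabs of the endoplasmic reticulum and Golgi, 9 of 12 genes were tested. Rab34 fell (1 gene, 11.1%, against 12.3% of all genes tested) and 8 did not pass, with a median of 0.062. Rab34 lies at and near the Golgi, where it is known to position lysosomes and to act in building cilia. Its brightest probe set read 6019, 5809 and 6082 with BSA and 3899.5, 4479.6 and 3171 with palmitate, with every palmitate array below the BSA arrays. The fall was 1.57-fold (-0.65 ± 0.16 on the log2 scale, adjusted p = 0.0146). The other probe set also had groups that did not overlap, at 5324, 4709 and 3812 against 3249, 2862 and 3657, and did not pass (-0.50 ± 0.17, adjusted p = 0.0641). The call on Rab34 was lost without BSA replicate 2 (0.0511) or palmitate replicate 3 (0.0652).

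The other genes of early secretory traffic lay close to 0. Rab1a and Rab1b, which serve transport from the endoplasmic reticulum to the Golgi, were at 0.15 ± 0.16 and 0.062 ± 0.26. Rab2a and Rab2b, of the intermediate compartment and the Golgi, were at -0.11 ± 0.14 and -0.17 ± 0.21. Rab6a, of retrograde Golgi traffic, was at 0.11 ± 0.14. The Golgi genes Rab33b, also tied to autophagy, and Rab43 were at 0.036 ± 0.21 and 0.078 ± 0.21. Rab1a and Rab1b encode near-identical proteins, and how far their probe sets cross-hybridise was not tested.

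Rab18 is found on lipid droplets and the endoplasmic reticulum. Its brightest probe set read 7995, 10785 and 7904 with BSA and 9843, 9305 and 8916 with palmitate, overlapped between groups and was at 0.087 ± 0.15 (adjusted p = 0.736). A dimmer probe set read 1558, 1727 and 2026 with BSA and 2962, 3435 and 2219 with palmitate, with no overlap, and rose 1.61-fold (0.68 ± 0.20 on the log2 scale, adjusted p = 0.0313). The gap between the probe sets, 0.60 on the log2 scale, gave an exact permutation p of 0.2 (two-sided, n = 3 per group, where 0.1 is the smallest possible). The call on the dimmer probe set was lost without BSA replicate 1, BSA replicate 2, palmitate replicate 1 or palmitate replicate 2 (adjusted p up to 0.0999), with scaling to the hybridisation controls (0.309) and with no intensity trend (0.0707).

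Of the 4 Rabs of exocytosis to the plasma membrane, all were tested and 1 fell, Rab13 (25.0%, against 12.3% of all genes tested). Rab13 is known from tight junctions, and in rat muscle cells from GLUT4 traffic. Its signal was 1686, 1575 and 1191 with BSA and 544, 1133 and 737 with palmitate. The groups did not overlap, although palmitate replicate 2 came near to BSA replicate 3. Rab13 fell 1.91-fold (-0.93 ± 0.27 on the log2 scale, adjusted p = 0.0323). The call was lost without BSA replicate 1, BSA replicate 2, palmitate replicate 1 or palmitate replicate 3 (adjusted p up to 0.110), and also with no filter on dim probe sets (0.0557) and with no intensity trend in the variance (0.0685). Rab8a and Rab8b, of traffic to the cell surface, were at -0.057 ± 0.19 and 0.036 ± 0.15. Rab10, which moves GLUT4 in mouse adipocytes, was at -0.014 ± 0.15, with signals of 7855, 7092 and 8399.9 with BSA and 7327, 6808 and 9118 with palmitate that overlapped. A dimmer probe set of Rab10 read 2599.7, 2715 and 2893 with BSA and 3614.5, 3211 and 3329.7 with palmitate. There all palmitate arrays lay above, and it did not pass (0.31 ± 0.15, limma adjusted p = 0.183). The remaining probe set of Rab10 overlapped, at -0.024 ± 0.16.

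Of the 7 Rabs of late endosomes, lysosomes and autophagy, 5 were tested by their brightest probe set, with a median of -0.22. Of these 5, 0 passed (against 20.2% of all genes tested). Rab7, which controls the maturation of late endosomes and their fusion with lysosomes, read 11498, 10279 and 10259.9 with BSA and 11081, 13225 and 12972 with palmitate by its brightest probe set, at 0.22 ± 0.13 (adjusted p = 0.287). A dimmer probe set of Rab7 read 4044, 4322 and 3651 with BSA and 5355, 7953 and 5409.5 with palmitate, with all palmitate arrays above, and rose 1.53-fold (0.62 ± 0.18 on the log2 scale, adjusted p = 0.0300). The difference between both probe sets, 0.40, had an exact permutation p of 0.2 (two-sided, n = 3 per group). The rise was lost without BSA replicate 2, BSA replicate 3 or palmitate replicate 2 (adjusted p up to 0.0966), with scaling to the hybridisation controls (0.335) and with no intensity trend (0.0842).

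Rab9, of transport from late endosomes back to the trans-Golgi network, was at -0.33 ± 0.20. Rab12, of transferrin receptor degradation, was at 0.10 ± 0.17, and Rab24, of autophagy, at -0.22 ± 0.22. Rab29, counted in this group though also known at the Golgi, recruits the kinase LRRK2. It had the lowest value of the 5 tested in the group, -0.57 ± 0.35. Its signals overlapped, at 568, 554 and 383 with BSA and 405, 363 and 250.3 with palmitate.

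Of the SOCS-box Rabs, which join cullin ubiquitin ligases, Rab40b fell and Rab40c did not pass. Rab40b read 1021, 1189 and 1201 with BSA and 749.8, 563 and 773 with palmitate, without overlap. It fell 1.65-fold (-0.72 ± 0.22 on the log2 scale, adjusted p = 0.0406), but leaving out any 1 array ended the call (adjusted p between 0.0525 and 0.126). No filter on dim probe sets (0.0791), median scaling (0.0567) and quantile normalisation (0.0604) ended it too. Rab40c was at -0.020 ± 0.16.

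The 2 cilium genes did not pass (0 calls, against 20.2% of all genes tested). Rab23, a negative regulator of Hedgehog signalling, read 1565, 1717 and 1272 with BSA and 1259.7, 959.6 and 867 with palmitate. All palmitate arrays lay below, at -0.57 ± 0.21 (adjusted p = 0.0867), while its dimmer tested probe set was at 0.43 ± 0.42. Rab28, known from photoreceptor cilia, was at -0.11 ± 0.19.

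**Figure D2:**
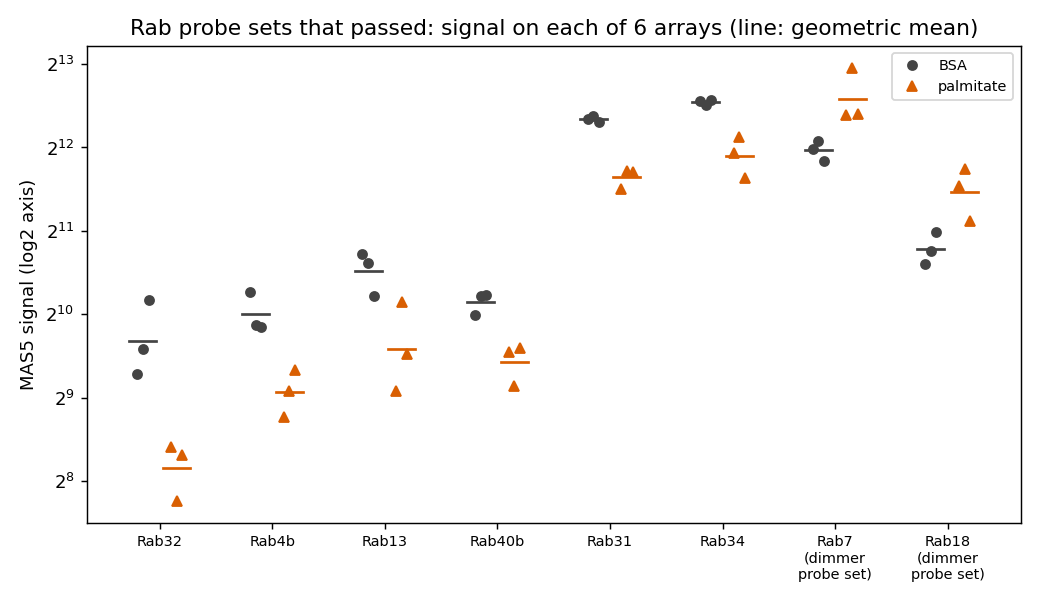
Deposited signal on each of the 6 arrays (log-scaled y axis) for every Rab probe set that passed, with the BSA and palmitate arrays side by side and a line at each geometric group mean. In each of the 6 probe sets that fell and the 2 that rose (Rab7 and Rab18), the groups do not overlap.

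Regulated secretion had 7 genes on the array, and 6 of them were too dim to be tested. The Rab3 genes and Rab27 genes dock secretory vesicles in neurons, glands and blood cells, and Rab37 is known from secretory granules. The tested gene was Rab27b, at -0.58 ± 0.39 with overlapping groups. Untested were Rab3a, Rab3b, Rab3c, Rab3d, Rab27a and Rab37.

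The other 7 untested genes were Rab6b, Rab30 and Rab33a of the Golgi, Rab17 and Rab25 of epithelial recycling endosomes, and Rab7b and Rab20 of late endosomes and phagosomes. Of the 13 untested genes, 3 had representative probe sets whose groups did not overlap (23.1%, against 12.9% of all 4462 untested genes), and these values are dim. Rab20 read 137, 125 and 81.5 with BSA and 221, 311 and 215 with palmitate. Rab6b read 19.5, 28.7 and 10.1 with BSA and 124, 67.9 and 86.8 with palmitate. Rab30 was lower with palmitate, from 112, 217 and 106 to 32.2, 43.5 and 17.9. A probe set of Rab3d that is not its brightest by mean log2 signal read 585, 728 and 532 with BSA and 8.3, 297 and 153 with palmitate. With no filter on dim probe sets these had limma adjusted p values of 0.315, 0.151, 0.144 and 0.0997, so none was called there.

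Probe sets of the same Rab did not always share a direction. Among the 19 Rab genes with more than 1 tested probe set (49 probe sets in all), 6 had every probe set on the same side of 0. These were Rab7, Rab11a, Rab18, Rab21, Rab24 and Rab34. For Rab31 the difference between its probe sets was 0.97 on the log2 scale (exact permutation p = 0.1, two-sided, n = 3 per group, the smallest possible), and for Rab34 it was 0.15 (p = 0.6). Rab14 had 5 tested probe sets, from -0.82 ± 0.34 for the dimmest of them to 0.19 ± 0.18 for the highest. Whether the probe sets read different transcripts of a gene was not tested.

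**Figure D3:**
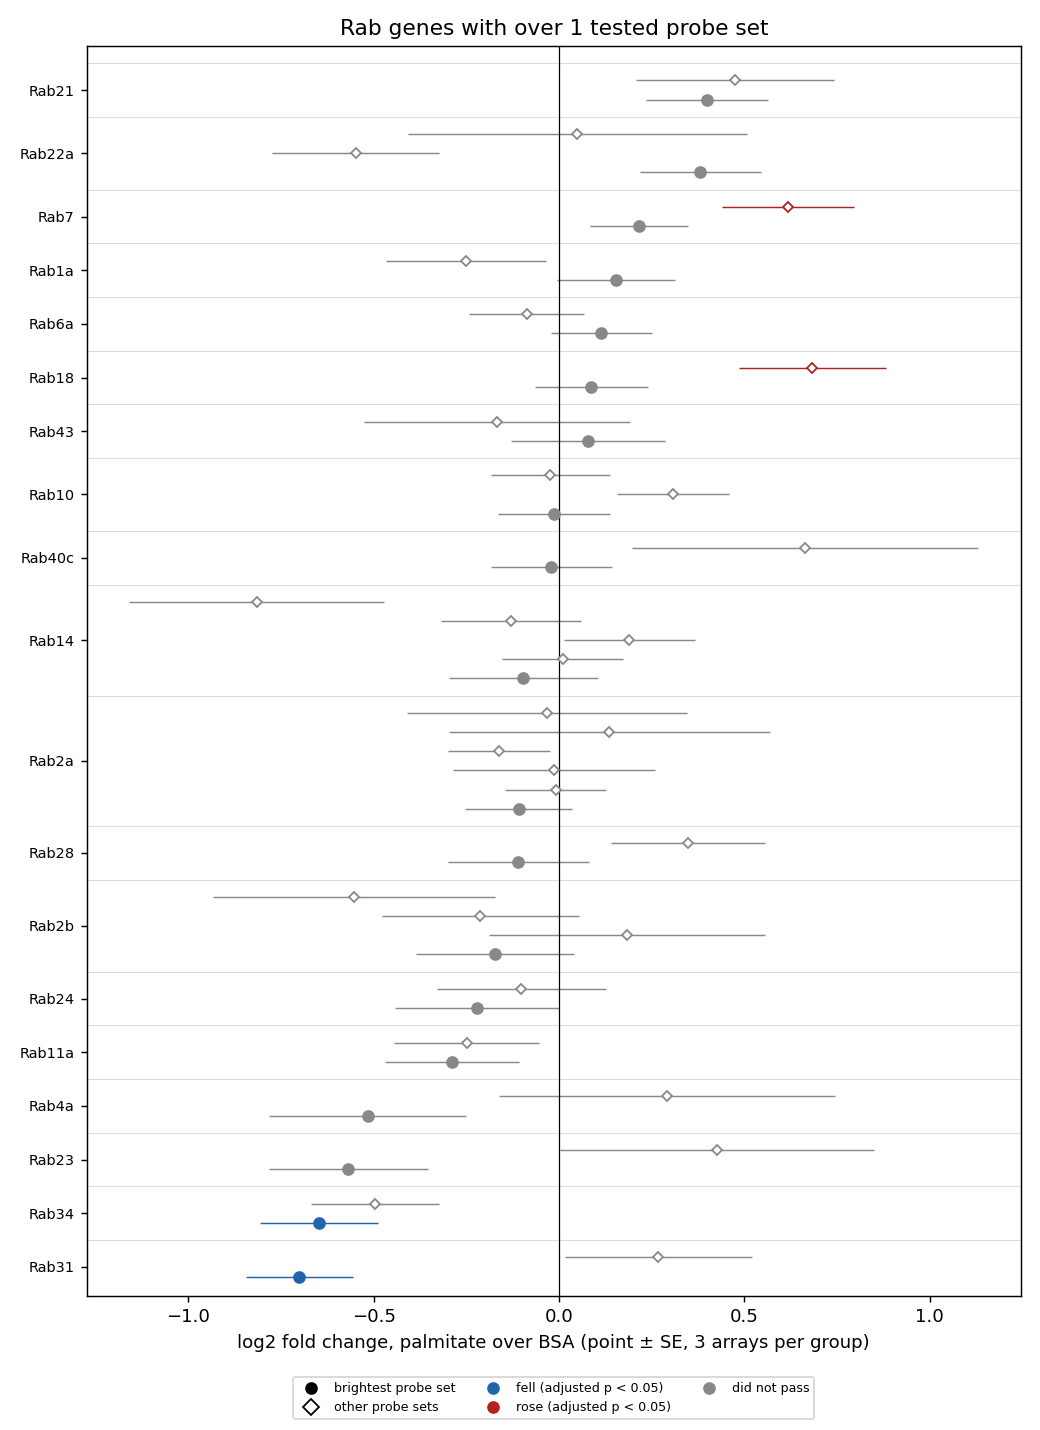
Log2 fold change, palmitate over BSA (x axis, point ± SE, 3 arrays per group), of every tested probe set of the 19 Rab genes with more than 1, with the brightest as a filled circle and the others as open diamonds. Rab31 has a fall of 0.70 by its brightest probe set and a value of 0.27 by the other, whereas both probe sets of Rab34 lie below 0.

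Promoter windows of 250 bases before and 50 bases after a gene's start were taken from RefSeq (GRCm38.p6) and matched 42 of the 50 Rab genes by symbol. Those of Rab32, the largest fall, and of Rab34 and Rab4b, the only genes that fell with a motif match, are shown 5' to 3' on the gene's strand. Rab32 lies at chr10:10558158-10558457 on the minus strand, the earlier of the 2 Rab34 windows at chr11:78188177-78188476 on the plus strand and Rab4b at chr7:27178834-27179133 on the minus strand. Capitals mark an AP-1 site (TGANTCA) at positions 193 to 199 of the Rab34 window and an antioxidant response element core (TGACNNNGC, read on either strand) at positions 120 to 128 of the Rab4b window.
Rab32: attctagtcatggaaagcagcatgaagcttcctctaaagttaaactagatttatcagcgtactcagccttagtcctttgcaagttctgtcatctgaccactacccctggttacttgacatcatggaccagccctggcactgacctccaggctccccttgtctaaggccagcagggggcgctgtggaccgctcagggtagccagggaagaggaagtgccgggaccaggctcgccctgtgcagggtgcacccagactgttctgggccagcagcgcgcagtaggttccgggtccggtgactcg
Rab34: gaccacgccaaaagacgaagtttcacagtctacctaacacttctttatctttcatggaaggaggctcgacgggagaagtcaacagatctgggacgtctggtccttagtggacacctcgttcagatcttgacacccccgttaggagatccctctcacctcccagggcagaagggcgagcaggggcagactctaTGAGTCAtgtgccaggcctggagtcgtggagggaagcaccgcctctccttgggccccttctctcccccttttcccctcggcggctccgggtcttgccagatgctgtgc
Rab4b: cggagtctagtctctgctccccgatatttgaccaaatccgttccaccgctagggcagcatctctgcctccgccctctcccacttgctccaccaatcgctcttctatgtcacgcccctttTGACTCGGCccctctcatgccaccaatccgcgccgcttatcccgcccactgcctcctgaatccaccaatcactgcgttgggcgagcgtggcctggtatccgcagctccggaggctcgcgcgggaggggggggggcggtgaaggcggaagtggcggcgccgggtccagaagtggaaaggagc

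Over the 54 windows of these 42 Rab genes, the AP-1 letters were found in 2 (3.70%, against 7.81% of all 32851 windows) and the antioxidant core in 10 (18.5%, against 12.4%). The E-box CACGTG was found in 6 Rab windows (11.1%, against 7.15%), those of Rab5a, Rab20, Rab21, Rab23, Rab24 and Rab27a. The endoplasmic reticulum stress element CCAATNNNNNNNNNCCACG was found in 0 Rab windows, against 0.119% of all windows. Both strands were searched, and the motifs overlapped nowhere in the windows shown. The median GC share was 61.2% over the Rab windows and 52.7% over all windows, and its part in these percentages was not tested. A match describes the letters of a window only.

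The genes that load, switch and read Rabs were followed in lists of 150 genes, of which 87 were on the array and 68 were tested. With palmitate 4 rose, 9 fell and 55 did not pass (19.1% called, against 20.2% of all genes tested), with a median log2 fold change of -0.10. The smallest adjusted p in these lists was that of Rabggtb. It was the only 1 of the 6 tested prenylation and cycling genes to pass (16.7%, against 20.2% of all genes tested). Rabggtb, the catalytic beta subunit of Rab geranylgeranyl transferase, read 4045, 5135 and 3996 with BSA and 10616, 11639.9 and 10395 with palmitate. A wide gap separated the groups. Rabggtb rose 2.49-fold (1.32 ± 0.15 on the log2 scale, adjusted p = 0.000104) and passed under every alternative tried.

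Other genes of prenylation and cycling did not pass. The alpha subunit gene Rabggta was at 0.063 ± 0.23 and Chm, the escort protein that presents Rabs to the enzyme, at 0.030 ± 0.23. Rabac1, a Rab acceptor protein, was at -0.33 ± 0.22. Gdi2, a GDP dissociation inhibitor, read 21297, 26342 and 19707 with BSA and 17388, 14522 and 19886 with palmitate, at -0.38 ± 0.15 (adjusted p = 0.110), and passed after quantile normalisation (0.0346) and scaling to the hybridisation controls (0.00264). Its probe set is of a kind that may cross-hybridise.

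Among 23 tested exchange factors, 1 rose, 2 fell and 20 did not pass (13.0% called, against 20.2% of all genes tested). Rin1, which activates Rab5, rose from 1770.4, 1311 and 1477 with BSA to 2182, 3334 and 2384 with palmitate, without overlap (0.78 ± 0.21, adjusted p = 0.0199). Rin2, also an exchange factor of Rab5, fell from 922, 684 and 836 to 237, 622 and 105, with a wide spread between the palmitate arrays (-1.69 ± 0.52, adjusted p = 0.0396). With palmitate the mean log2 signal of Rin2 was 7.96, below the filter, so it was tested only through its brighter BSA arrays. At the 60th percentile filter Rin2 was not tested. Trappc1, a subunit of the TRAPP complexes that activate Rab1 and related Rabs, fell from 2244, 1822 and 1902 to 1206, 1245 and 1118 (-0.74 ± 0.18, adjusted p = 0.0134). The call on Trappc1 held with each array left out in turn. That on Rin1 was lost without BSA replicate 2, BSA replicate 3 or palmitate replicate 2 (up to 0.0902), with no intensity trend (0.0511) and with scaling to the hybridisation controls (0.194). That on Rin2 was lost on leaving out any array other than palmitate replicate 2 (up to 0.104), with no filter (0.077) and with no intensity trend (0.0839). Another TRAPP subunit, Trappc12, was at -0.51 ± 0.22 and did not pass.

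Among 17 tested GTPase-activating proteins, 2 fell and 15 did not pass (11.8% called, against 20.2% of all genes tested). Tbc1d14, a regulator of autophagosome formation, read 1673, 1771 and 2002 with BSA and 917, 1073 and 1068 with palmitate, and fell (-0.83 ± 0.18, adjusted p = 0.00860). Tbc1d8, a TBC-domain protein, fell (-0.89 ± 0.29, adjusted p = 0.0497), a call that was lost on leaving out any array other than palmitate replicate 3 (up to 0.157) and with no filter, median scaling, quantile normalisation or no intensity trend (0.0678 to 0.0966). Tbc1d1, a GTPase-activating protein of GLUT4 vesicles in muscle, read 1274, 1015 and 805 with BSA and 1179, 968 and 1184 with palmitate. Its groups overlapped, at 0.13 ± 0.23. Tbc1d10a was at 0.60 ± 0.23 and Tbc1d15, which acts on Rab7, at 0.49 ± 0.25, neither of which passed. Tbc1d4, also on this list, was not the lone gene symbol of any probe set and so has no value here.

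Among 22 tested effectors, 2 rose, 5 fell and 15 did not pass (31.8% called and 22.7% fell, against 20.2% and 12.3% of all genes tested). Eea1, the Rab5 tether of early endosomes, rose from 1627, 2498 and 2310.0 with BSA to 3839, 3423 and 4076 with palmitate, with all palmitate arrays above (0.84 ± 0.19, adjusted p = 0.00937). Uso1, a Golgi tether that binds Rab1, rose from 4482, 3876 and 4216 to 6485, 6774 and 6146 (0.63 ± 0.14, adjusted p = 0.00880). Neither call held with scaling to the hybridisation controls (0.0875 and 0.288), and that on Uso1 narrowly missed the threshold without BSA replicate 2.

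The 5 effectors that fell were Osbpl1a, Rufy1, Fyco1, Vps41 and Ankfy1. Rufy1, a Rab4 effector, was at -0.79 ± 0.21 (adjusted p = 0.0194) and Ankfy1, a Rab5 effector, at -0.62 ± 0.16 (0.0211). Osbpl1a, a sterol-binding partner of Rab7, was at -0.98 ± 0.22 (0.00947), and Fyco1, which links Rab7 to kinesin, at -0.74 ± 0.21 (0.0289). Vps41, of the complex that tethers late endosomes to lysosomes, fell from 3609.7, 3179 and 3373 to 1860.3, 2104 and 2446 (-0.67 ± 0.17, adjusted p = 0.0148). Osbpl1a lost its call without BSA replicate 2 (0.0539) and with probe sets averaged (0.0696), and Vps41 without palmitate replicate 1 (0.0631). Rufy1 lost it without BSA replicate 2, BSA replicate 3, palmitate replicate 1 or palmitate replicate 3 (up to 0.0726). Ankfy1 lost it without BSA replicate 2, palmitate replicate 2 or palmitate replicate 3 (up to 0.0893). Fyco1 lost it on leaving out any of the BSA arrays or palmitate replicate 2 (up to 0.0958) and with no intensity trend (0.0582).

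**Figure D4:**
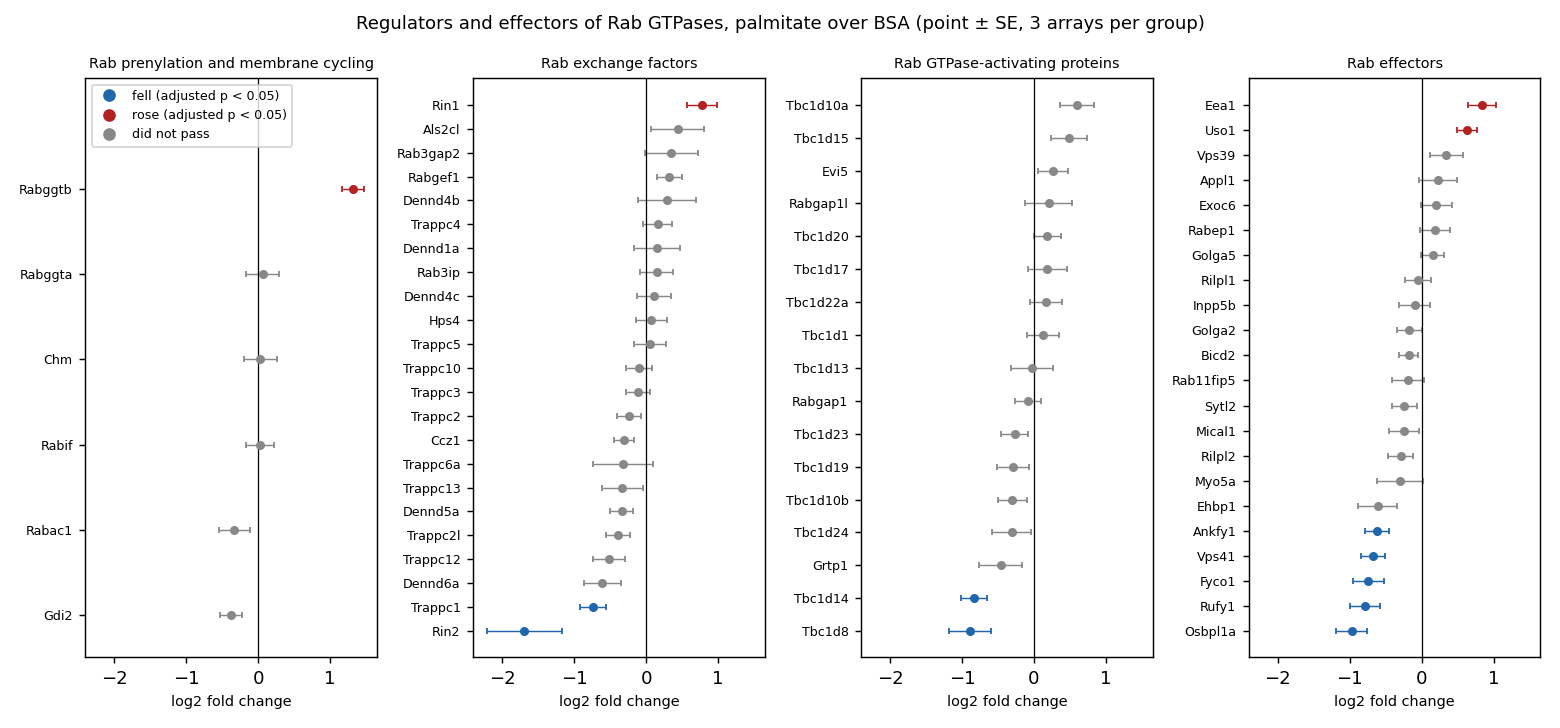
Log2 fold change, palmitate over BSA (x axis, point ± SE, 3 arrays per group), of the 68 tested genes for Rab prenylation and cycling, exchange, GTP hydrolysis and effector function. Rabggtb stands at 1.32, the highest of the 68, and the effectors, 22 of the 68 tested, hold 5 of the 9 genes that fell.

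Markers named for other cell types were also followed. In cultures of the C2C12 line they do not show that such cells were present. All 6 tested of 8 fibroblast markers fell (Col1a1, Col3a1, Col6a3, Dcn, Pdgfra and S100a4), where 12.3% of all genes tested fell. Their median log2 fold change was -1.54, and their summed signal was 101673 to 125346 with BSA against 32684 to 36110 with palmitate. Pdgfra had a mean log2 signal of 8.04 with palmitate, below the filter, and was tested only through its brighter BSA arrays. Of 8 markers of undifferentiated myoblasts on the array 7 were tested and 4 fell (Id2, Id3, Mki67 and Top2a, 57.1%, against 12.3% of all genes tested). Cdc20 (0.024 ± 0.18), Id1 (-0.030 ± 0.26) and Myf5 (-0.24 ± 0.28) did not pass, and their groups overlapped. The summed signal of the 7 was 20871 to 23600 with BSA against 12114 to 14113 with palmitate. Top2a and Mki67 were the brightest of them with BSA (mean signals of 6383 and 5449). The 3 tested macrophage markers gave 0 calls (against 20.2% of all genes tested). Their summed signal was 1555 to 1788 with BSA against 1661 to 1779 with palmitate. Within that sum Csf1r was at 1.26 ± 0.47 (adjusted p = 0.0805), with the palmitate arrays wholly above, and Adgre1 and Cd14 were at -0.53 ± 0.32 and -0.29 ± 0.24, with the palmitate arrays wholly below. Of the others the adipocyte list had 0 of 1 called and the neuron list 1 of 2, Stmn2 (against the same 20.2%). All 5 endothelial markers were too dim to be tested, and no tested marker had a signal of 0. Their part in the Rab results was not tested, and in bulk RNA fewer cells of a type and less RNA per cell cannot be told apart.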

How the data were processed

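The deposited values, 1 per probe set and array, were linear signal intensities made by the authors with MAS5 per the submitters' processing notes, from biotin-labelled cRNA on Affymetrix mouse 430A 2.0 arrays per the series' design text. Its settings are not given in the sources used here. Neither scan dates nor detection calls were used. Of 22690 probe sets, 64 were controls. Of the others, the platform annotation gave 20380 a lone gene symbol, 691 several and 1555 none, and only the first kind was named.

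The deposited signals were log2 transformed here with no offset, and the 13575 probe sets whose mean log2 signal exceeded the 40th percentile were tested. The 2 groups were compared with a two-sided test in limma 3.58.1 under R 4.3.3, using lmFit and an eBayes step that follows the intensity trend. P-values were adjusted by Benjamini and Hochberg over all 13575, at a threshold of 0.05. Values written with ± are log2 fold changes and their SE from that fit, n = 3 per group. Counts and permutation tests used Python 3.11.15 and scipy 1.17.1. In data simulated from the fitted variances, on 13575 probe sets, the fit found 14.9% of the probe sets given a 1.5-fold change, 60.1% at 2-fold and 93.5% at 4-fold. The simulation changed far fewer probe sets than the 2609 called here, which makes its adjusted threshold stricter. These shares therefore do not give the power of this comparison.

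Rab genes were grouped by the compartment each serves, 1 group per gene, from background knowledge. Every tested Rab gene was named, with all 6 signals where a probe set passed, and of the machinery lists the genes past the threshold, up to 4 per list with the smallest p, and Tbc1d1, Tbc1d4, Gdi2, Rabggta, Rabggtb and Chm, with 1 further gene of that rule not reported here. Members, lists and tests were chosen with earlier results of these data known. Further signals, such as those of Rab5c, Rab10, Rab20 and Rab23, were shown after their values were seen. Alternatives were no filter, a filter at the 60th percentile, offsets of 50 and 200, 3 other scalings (median, quantile, and 9 hybridisation control probe sets), no intensity trend, averaged probe sets, a replicate block and each array left out.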

Additional observations from a re-analysis of the deposited data

How the results depend on the processing

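As deposited, 0 Rab genes were higher and 6 lower, 2 and 6 Rab probe sets, and 4 and 9 machinery genes, while palmitate arrays lay wholly above BSA arrays for 2 Rab genes and wholly below for 7. With no filter, 4 Rab genes lay wholly above. With the filter at the 60th percentile, 4 Rab genes were lower (Rab13, Rab31, Rab34 and Rab40b), and Rab32 and Rab4b were not tested. With median scaling 1 Rab gene was higher (Rab5c) and 1 lay wholly above. With scaling to the hybridisation controls, 0 Rab probe sets were higher and 13 lower (19.4%, against 23.3% of all probe sets). By gene, 10 Rab genes were lower (27.0%, against 26.4% of all genes). Of the 68 tested machinery genes, 1 was higher and 18 were lower (against the same 26.4% of all genes). Under this scaling 0 Rab genes lay wholly above and 16 of 37 wholly below. The median over all probe sets was then -0.34, and the share of all genes wholly below was not computed. With no intensity trend, 0 Rab probe sets were higher. Leaving out each array in turn gave 0 to 3 Rab probe sets higher and 2 to 6 lower, 0 to 1 Rab genes higher and 2 to 5 lower, 2 to 4 machinery genes higher and 3 to 6 lower, 4 to 5 Rab genes wholly above and 7 to 10 wholly below (fewer arrays overlap less often). Samples with the same replicate number did not deviate together (correlations of -0.23, -0.13 and 0.0091), so the numbers are not taken to pair them. With the replicate block 1 Rab probe set was higher and 5 lower, 5 Rab genes were lower, 4 machinery genes were higher and 6 lower, and 1973 of all probe sets passed against 2609. The block took the adjusted p past 0.05 for the dimmer Rab18 probe set (0.0604), Rab40b (0.0831), Tbc1d8 (0.0549), Ankfy1 (0.0609) and Rufy1 (0.0537). Over the single genes and probe sets named, 812 values under an alternative kept direction and side of the threshold, 76 lost the call, 9 gained it and 50 were uncalled values that crossed 0. No called value changed sign under the alternatives tried. The cause of these shifts was not tested. The 3 arrays per group limit what could be called, and 13 Rab genes were too dim to test.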
